A study of Mus musculus with 4 samples.

Results

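Dorsal telencephalon and cortical area patterning factors were followed by RNA-seq in whole cerebral cortex of mouse embryos at embryonic day 15. They are 9 transcription factor genes, Pax6, Emx1, Emx2, Dmrta2, Dmrt3, Nr2f1, Nr2f2, Sp8 and Tfap2c, taken by symbol from the deposited table of 13289 genes. All 9 were found, and all 9 passed the filter on low counts. The study compared 2 control libraries, titled WT, with 2 Lhx2 cKO libraries, read here as a conditional knockout of Lhx2. The allele, the Cre driver, the deleted exons, the strain, the litter and whether embryos were pooled are not given in the labels. Nor do the labels say that the libraries of a group came from separate embryos, so the spread behind the p-values may be technical. That spread was estimated mostly across genes, with 38.7 prior degrees of freedom against 2 residual ones per gene. The p-values and intervals therefore rest little on the spread of a gene's own libraries.

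The dorsal telencephalon, or pallium, gives rise to the cerebral cortex, and its progenitors (radial glia) carry transcription factors in gradients that set regional and area identity. Emx2, Dmrta2, Dmrt3 and Nr2f1 are known to be stronger towards the caudal or medial side, and Pax6 and Sp8 towards the rostral side. Pax6 and Emx2 are also known to oppose ventral fates, and Tfap2c acts in the production of basal progenitors. Lhx2, a LIM-homeodomain factor of cortical progenitors, is known to hold back the fates of the cortical hem and the antihem, the signalling edges of the pallium.

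Lhx2 itself read 316 and 287 CPM (counts scaled to library size) in control and was lower in Lhx2 cKO, at 239 and 247 CPM. The groups did not overlap, and edgeR's quasi-likelihood test gave an adjusted p of 0.0191 (log2 fold change -0.31, SE 0.0976). That call was lost without control 1 (adjusted p 0.176), without Lhx2 cKO 1 (0.102) and without Lhx2 cKO 2 (0.0538). The authors' deposited table gives Lhx2 a log2 fold change of -0.32 and an adjusted p of 0.0117, and marks it NS. Reads outside a deleted part would still be counted, and the reason for the small size of this fall was not tested. The value is at most a weak check of the direction of the labels. Library totals ranged from 22294237 to 24609627 counts, at which 3 counts, taken as the floor of detection, equal 0.122 to 0.135 CPM. Such floors cover counting error only. Every patterning factor lay well above the floor, the lowest count being 53, for Dmrt3 in control 2.

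Of the 9 patterning factors, 5 were lower in Lhx2 cKO (Emx1, Pax6, Dmrta2, Tfap2c and Emx2) and 1, Dmrt3, was higher, each at an adjusted p under 0.05, which is what "called" means here. Over all 13288 genes tested, 9.17% were called lower and 11.6% higher. Nr2f1, Nr2f2 and Sp8 were not called. The median log2 fold change of the 9 was -0.62, against a median of 0.003 over all genes tested. For 8 of the 9 the libraries of the groups did not overlap, a separation that 59.3% of all tested genes showed. The exception was Nr2f2. The genes were picked with earlier results of these libraries known, so their counts describe them and are not an independent test.

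**Figure D1:**
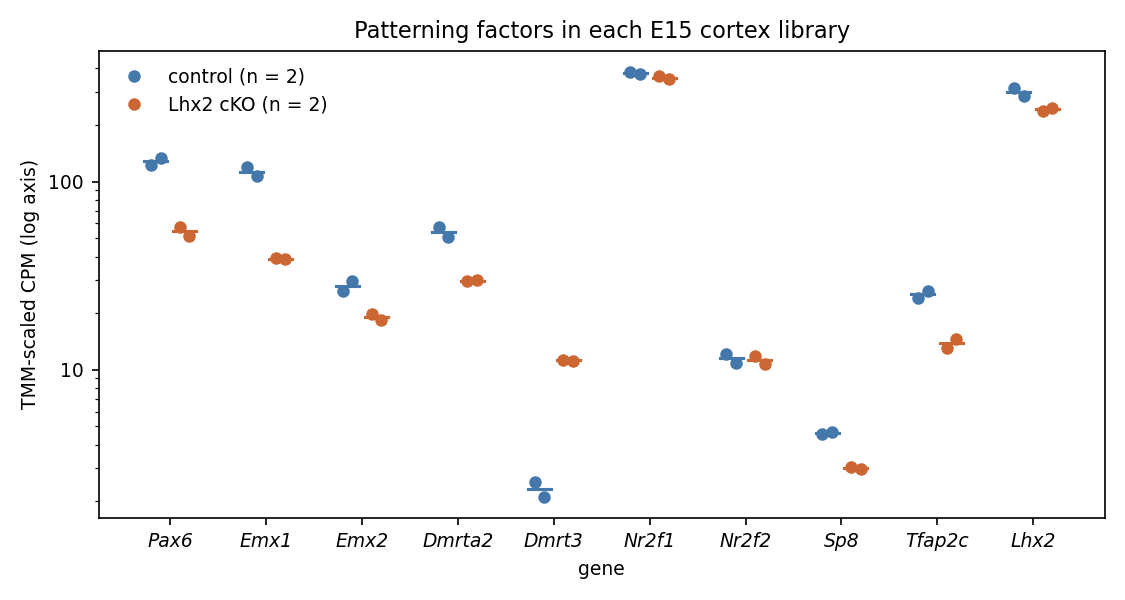
CPM scaled with TMM factors, on a log axis, for each patterning factor and for Lhx2; points are single libraries (2 control, 2 Lhx2 cKO) and short lines are group means. Dmrt3 is the single factor whose Lhx2 cKO points, at 11.3 and 11.2 CPM, lie above its control points, at 2.52 and 2.12 CPM, while the points of Nr2f2 overlap.

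Emx1 and Emx2 are paralogous homeobox genes of the pallium, Emx1 being confined to it and Emx2 graded from high caudomedial to low rostrolateral levels. Emx1 stood at 119 and 107 CPM in control and at 39.1 and 38.9 CPM in Lhx2 cKO. The means were 113 ± 8.71 CPM (SD, n = 2) and 39.0 ± 0.141 CPM (SD, n = 2), so that 34.5% of the control level remained. This was the largest fall among the 9, at -1.54 on the log2 scale (adjusted p 2e-15 in edgeR, SE 0.101), and it ranked 41 among the 1218 genes called lower, ordered by fold. Emx2 stood at 26.3 and 29.6 CPM in control and at 19.7 and 18.4 CPM in Lhx2 cKO, with 68.2% of the control level remaining. Its log2 fold change was -0.55 (SE 0.126, adjusted p 0.00106), with a 95% interval from -0.81 to -0.30 that does not reach that of Emx1, from -1.74 to -1.33. The difference between the paralogs was not tested. Emx2 shares 264 bases, or 8.79% of its exonic bases in GENCODE M21, with Emx2os on the other strand, and the strand setting of the counting is not given, so its counts may hold reads of that transcript.

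The promoter windows of the paralogs, from 250 bases before to 50 after the annotated start, are shown because they differ in a homeodomain core motif, TAATTA, of the kind LIM-homeodomain proteins bind. The sequences are RefSeq's on GRCm38.p6, and the deposited counts were made on mm39. Capitals mark this motif, the Sp box GGGCGG or the nuclear receptor core motif AGGTCA, each searched on both strands. Emx1 lies at chr6:85187681-85187980 on the plus strand and Emx2 at chr19:59458440-59458739 on the plus strand.
Emx1: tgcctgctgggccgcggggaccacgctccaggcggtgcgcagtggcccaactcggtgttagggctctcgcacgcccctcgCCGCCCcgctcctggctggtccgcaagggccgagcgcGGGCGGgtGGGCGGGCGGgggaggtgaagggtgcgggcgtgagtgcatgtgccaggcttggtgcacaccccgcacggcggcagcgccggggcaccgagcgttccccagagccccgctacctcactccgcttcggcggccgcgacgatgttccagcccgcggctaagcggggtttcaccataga
Emx2: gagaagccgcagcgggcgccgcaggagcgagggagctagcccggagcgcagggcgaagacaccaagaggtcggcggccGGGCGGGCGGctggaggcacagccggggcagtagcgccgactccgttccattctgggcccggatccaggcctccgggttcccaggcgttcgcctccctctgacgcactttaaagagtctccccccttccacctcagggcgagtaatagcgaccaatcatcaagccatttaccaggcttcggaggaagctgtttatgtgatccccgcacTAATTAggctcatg
Emx2 holds 1 TAATTA, which begins at base 37 counted from the annotated start as base 1, and Emx1 holds 0. Emx1 has 4 GGGCGG matches, some overlapping, and Emx2 has 2 that overlap. TAATTA, which reads alike on both strands, occurs in 5.29% of all 32851 RefSeq promoter windows and GGGCGG in 35.7%. Over the 13482 windows of genes in the deposited table these shares were 2.58% and 62.3%. These matches describe the letters of the windows only.

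Pax6, a paired-box and homeobox factor required for radial glia and for rostrolateral cortical identity, was at 123 and 134 CPM in control and at 57.5 and 51.7 CPM in Lhx2 cKO. Every Lhx2 cKO value lay below every control value, and 42.4% of the control mean remained. The means were 129 ± 7.55 and 54.6 ± 4.11 CPM (SD, n = 2 each). In edgeR its log2 fold change was -1.24 (adjusted p 6.4e-13, SE 0.0995), which ranked 72 among the genes called lower. Tfap2c, encoding AP-2 gamma, a factor that Pax6 is known to act upstream of in basal progenitor production, was at 24.0 and 26.4 CPM in control and at 13.1 and 14.6 CPM in Lhx2 cKO. Its log2 fold change was -0.86 (SE 0.136, adjusted p 5.23e-06), with 55.0% of the control mean remaining.

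The doublesex-related factors Dmrta2 and Dmrt3 are zinc-finger proteins expressed from high caudomedial to low rostrolateral levels in the pallium, where they are known to act together. In these libraries they moved in opposite directions. Dmrta2 was at 57.2 and 51.1 CPM in control and at 29.7 and 29.9 CPM in Lhx2 cKO, or -0.86 on the log2 scale (adjusted p 3.32e-08 in edgeR, SE 0.106). Dmrt3 was at 2.52 and 2.12 CPM in control and at 11.3 and 11.2 CPM in Lhx2 cKO. Control held 61 and 53 reads of it and Lhx2 cKO 256 and 257, so the rise does not rest on 1 library. The means were 2.32 ± 0.279 and 11.2 ± 0.0453 CPM (SD, n = 2 each), which is 4.83-fold higher, or 2.27 on the log2 scale (95% interval 1.82 to 2.72, SE 0.223, adjusted p 1.6e-10). That rise ranked 35 among the 1540 genes called higher. Dmrt1 and Dmrt2, the genes on either side of Dmrt3, are not analysed here.

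The promoter windows of the pair are shown because their transcripts moved in opposite directions. On GRCm38.p6 Dmrta2 lies at chr4:109977775-109978074 and Dmrt3 at chr19:25610287-25610586, both on the plus strand.
Dmrta2: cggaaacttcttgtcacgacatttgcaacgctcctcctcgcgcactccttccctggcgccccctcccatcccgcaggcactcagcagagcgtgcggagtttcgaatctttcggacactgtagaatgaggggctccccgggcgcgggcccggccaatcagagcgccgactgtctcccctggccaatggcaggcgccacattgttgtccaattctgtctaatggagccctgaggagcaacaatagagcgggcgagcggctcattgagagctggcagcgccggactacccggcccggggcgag
Dmrt3: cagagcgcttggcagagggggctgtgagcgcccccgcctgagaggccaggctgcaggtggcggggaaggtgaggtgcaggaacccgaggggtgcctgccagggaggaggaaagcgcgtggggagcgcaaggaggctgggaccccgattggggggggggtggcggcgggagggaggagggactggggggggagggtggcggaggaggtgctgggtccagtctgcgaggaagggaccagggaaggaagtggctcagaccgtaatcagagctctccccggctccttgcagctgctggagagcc
Neither window holds any of the 3 motifs on either strand, so no letter is in capitals. Their GC content was 63.7% in Dmrta2 and 70.7% in Dmrt3, with 26 and 15 CpG dinucleotides. Across the 12 windows listed for 8 of the 9 genes the median GC content was 59.9%, against 52.7% over all windows and 61% over windows of genes in the deposited table. TAATTA was in 2 of the 12 windows, those being the Emx2 window and 1 of 3 for Sp8, and AGGTCA, found in 16.3% of all windows and 12% of those of genes in the table, was in 1.

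Nr2f1 and Nr2f2 encode the orphan nuclear receptors COUP-TFI and COUP-TFII; Nr2f1 is known for promoting caudal area identity in progenitors and neurons, and Nr2f2 is also strong in caudal interneurons and in veins. Nr2f1 was at 383 and 375 CPM in control and at 363 and 351 CPM in Lhx2 cKO. The libraries did not overlap, but the difference was small, at -0.09 on the log2 scale (adjusted p 0.597 in edgeR, SE 0.099). Its 95% interval, from -0.29 to 0.11, leaves room for a modest change in either direction. Nr2f2 was at 12.2 and 10.9 CPM in control and at 11.8 and 10.7 CPM in Lhx2 cKO, with overlapping groups. Its log2 fold change was -0.04 (95% interval -0.37 to 0.29, adjusted p 0.897), and it turned to 0.03 without control 1 and to 0.02 without Lhx2 cKO 2. Antisense genes share 2.42% of the exonic bases of Nr2f1 and 7.46% of those of Nr2f2 in GENCODE M21, so those counts carry the same uncertainty as Emx2.

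Sp8, a zinc-finger factor tied to the rostral FGF8 source and also made by interneurons of caudal origin, had the largest SE of the 9. Its counts of 110 and 117 in control compared with 69 and 68 in Lhx2 cKO, or 4.54 and 4.68 against 3.03 and 2.96 CPM. The groups did not overlap and 65% of the control mean remained. With these low counts the log2 fold change of -0.62 had an SE of 0.274 and an adjusted p of 0.105 (unadjusted p 0.0288) in edgeR, so it was not called. Among markers fixed for interneurons of the caudal ganglionic eminence, 6 of 8 were analysed, summing to 63.6 and 54.7 CPM in control and 58.2 and 63.9 CPM in Lhx2 cKO. Of these, Cck was called higher (0.76) and Npas1 lower (-0.50). Without Lhx2 cKO 2 neither was called (Cck 0.46, adjusted p 0.0653; Npas1 -0.39, adjusted p 0.0687), and without control 1 Npas1 was not called (-0.34, adjusted p 0.143). The part of such cells in the levels of Sp8 and Nr2f2 was not tested.

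**Figure D2:**
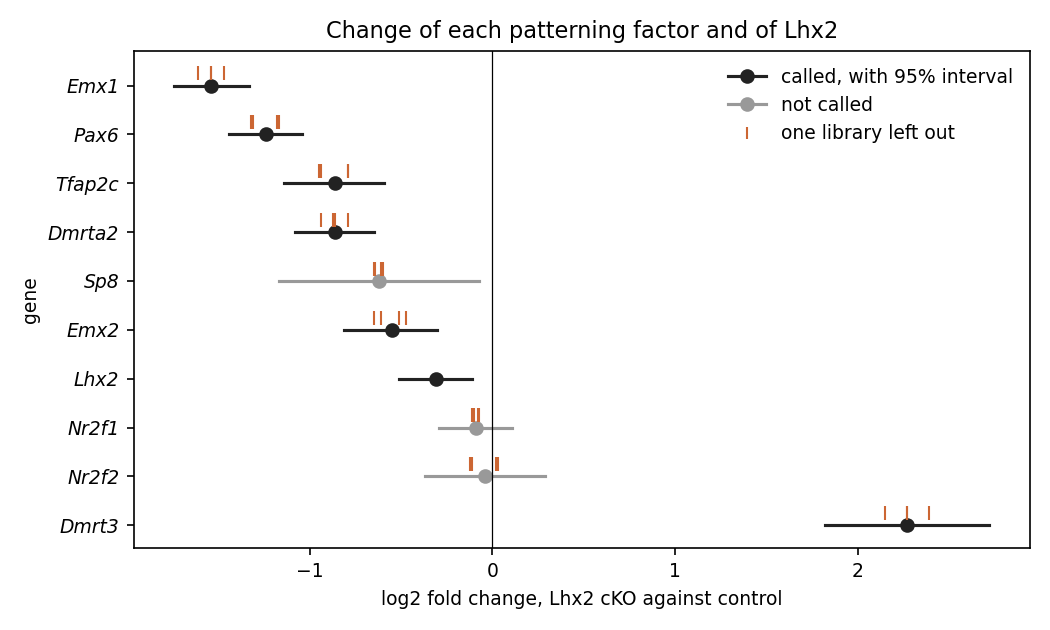
Log2 fold change between the groups, Lhx2 cKO over control (horizontal axis), with its 95% interval for each patterning factor and Lhx2; black marks called genes, grey those not called, and orange ticks the estimates with each library left out (not drawn for Lhx2). The ticks of Emx1 span -1.61 to -1.47 and those of Dmrt3 2.15 to 2.39, far from 0, while those of Nr2f2 lie on both sides of it.

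Levels of different genes were compared as CPM per kilobase of the deposited gene length. In control the order of mean levels was Nr2f1 (74.4 CPM per kilobase), Emx1 (51.8), Dmrta2 (18.5), Pax6 (11.0), Emx2 (9.31), Tfap2c (6.85), Nr2f2 (1.34), Sp8 (1.01) and Dmrt3 (0.948). Only the last neighbours in that order overlapped, Sp8 at 0.995 and 1.03 and Dmrt3 at 1.03 and 0.867 CPM per kilobase. In Lhx2 cKO Dmrt3 reached a mean of 4.59 CPM per kilobase, level with Pax6 at 4.67 and above Tfap2c at 3.76. The Lhx2 cKO values of Dmrt3, 4.60 and 4.58, lay between those of Pax6, 4.92 and 4.42. Pax6 has the longest deposited length, 11694 bases, which equals its merged exons over all transcripts in GENCODE M21, so its level per kilobase is low for its CPM.

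**Figure D3:**
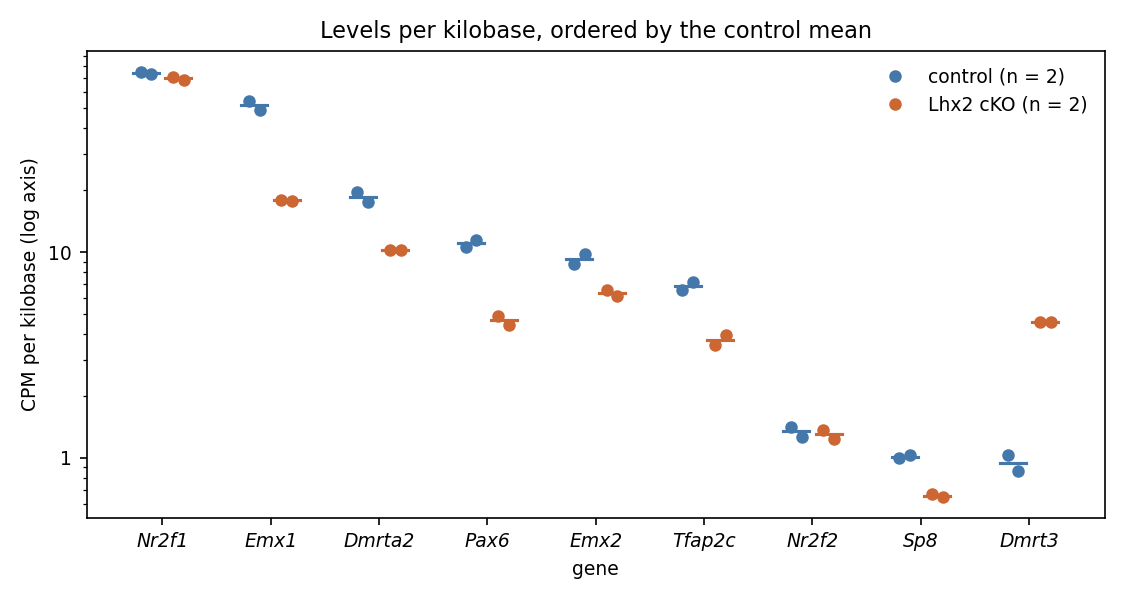
CPM per kilobase of gene length on a log axis for the 9 patterning factors, ordered by the control mean; points are single libraries and short lines group means. Dmrt3 is last in control (mean 0.948) and comes close to Pax6 in Lhx2 cKO (4.59 against 4.67).

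Most of these factors are made by progenitors, and in bulk cortex fewer cells of a type and less RNA per cell cannot be told apart. Markers of progenitors moved as well. Of 15 radial glia genes outside the 9, 6 were called lower and 3 higher (median -0.28; -0.04 without Lhx2 cKO 2 and -0.17 without control 2), and without control 1 the calls were 5 lower and 1 higher. Sox3 (-1.37) and Notch1 (-0.72) were lower and Mfge8 (0.86) higher, while the neural stem cell factor Sox2 was at -0.11 (adjusted p 0.515). The summed level of that list went the other way, from 1560 and 1690 CPM in control to 1880 and 2020 CPM in Lhx2 cKO, with Mfge8 and the growth factor gene Ptn (0.48) among the abundant genes that rose; Ptn was not called without control 1 (adjusted p 0.0654). Of 14 cell cycle genes 12 were called lower and 0 higher, with a median of -0.63. They summed to 487 and 539 CPM in control and to 332 and 326 CPM in Lhx2 cKO, and Mki67 (-0.87), Top2a (-0.86) and Cdk1 (-0.96) were examples. Without control 2 the calls in that list were 8 and its median -0.46.

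The levels of the 9 were therefore also set against these lists in each library, as values with no test. Against the mean log2 level of the radial glia list, the log2 differences were -1.38 for Emx1, -1.09 for Pax6, -0.71 for Dmrta2, -0.70 for Tfap2c, -0.39 for Emx2 and 2.20 for Dmrt3. In each of these 6 genes the groups still did not overlap, but the same held for Sp8 (-0.40) and for Nr2f1, at only 0.06. Per total counts 59.3% of all tested genes showed such a separation, and that share was not computed on the reference scales. Against the mean log2 level of the cell cycle list, which itself was lower by 0.56, Emx1 remained at -0.96, Pax6 at -0.67, Dmrta2 at -0.29 and Tfap2c at -0.28, again without overlap. On that scale Emx2 was at 0.02 and Sp8 at 0.01, with overlapping groups. Nr2f1 was at 0.47 and Nr2f2 at 0.52, both without overlap. Dmrt3 was at 2.62. On all 4 scales Emx1 was lowest, Pax6 came next and Dmrt3 was higher in Lhx2 cKO. The signs of Emx2, Nr2f1 and Nr2f2 depended on the scale. That of Sp8 is not settled, since the mean log2 levels add 0.5 CPM, which weighs on a gene this low. The part of progenitor number in these values was not tested.

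**Figure D4:**
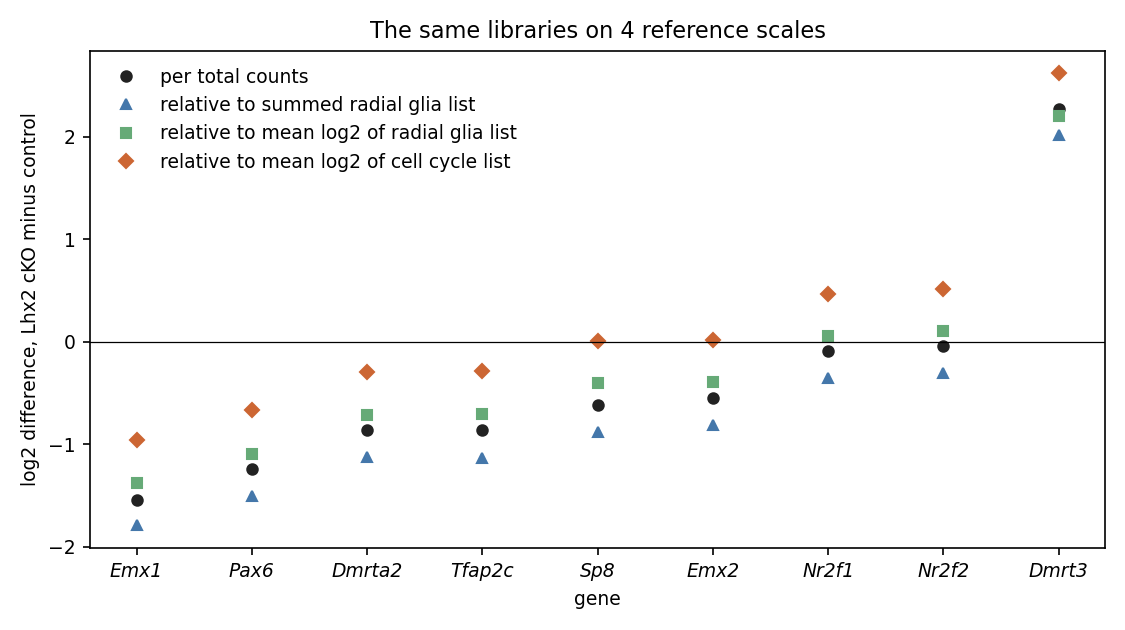
Log2 difference of Lhx2 cKO minus control for the 9 patterning factors on 4 scales: per total counts (black circles), relative to the summed radial glia list (blue triangles), to the mean log2 level of that list (green squares) and to that of the cell cycle list (orange diamonds). Emx1 stays below 0 on every scale, from -1.79 to -0.96, Dmrt3 stays above it, from 2.02 to 2.62, and Emx2 ranges from -0.81 to 0.02. Squares and diamonds add 0.5 CPM to each level, which shrinks the differences of low genes such as Dmrt3 and Sp8.

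Other regulators of the dorsal telencephalon were also lower more often than higher. Of 27 analysed, 11 were called lower (Lhx2 among them) and 0 higher, with a median log2 fold change of -0.28, and between 8 and 10 were called lower with any 1 library left out. Without Lhx2 cKO 2 there were 8 called lower and 1, Rfx4, called higher (0.92, adjusted p 0.0161 in edgeR, against 0.62 and 0.0732 with all libraries). Nr2e1, the stem cell factor Tlx, was at -1.11, from 24.3 to 11.3 CPM. Id4 was at -0.71, Tcf7l1, a repressor of Wnt targets, at -0.76, Bcl11a at -0.67, and the TALE homeobox genes Meis1 and Meis2 at -1.40 and -0.56 (edgeR adjusted p from 8.16e-08 to 0.000504 over these 6). Tbr1, a T-box factor of early-born neurons, was at 0.08 (adjusted p 0.615) and Fezf2, a factor of subcerebral neurons, at -0.19 (adjusted p 0.157); both were picked after their values were seen.

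Among 10 genes reported as targets of Pax6, 5 were called lower and 0 higher, with a median of -0.32. Eomes, the T-box factor of intermediate progenitors, went from 215 to 68.3 CPM (-1.66 on the log2 scale, adjusted p 5.49e-17 in edgeR). Nfia was at -0.56, Gli3, a zinc-finger effector of hedgehog signalling, at -0.51 and the proneural factor Neurog2 at -0.43. Neurod6, at -0.32, was called with all libraries and without control 2, and not in the other 3 fits with 1 library left out (adjusted p 0.0748 to 0.158). Fabp7 and Sfrp2, at 0.16 and -0.15, were not called. Eomes and Neurog2 also stand in the intermediate progenitor list, Neurod6 in the neuron list and Gli3 in the radial glia list. The calls in these lists are therefore not separate from those given here.

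Ventral and edge markers gave mixed values. Of 14 genes listed for the ventral telencephalon 9 were analysed, with Olig2 called higher (1.28) and Meis2, given above, called lower; Dlx1 (0.07) and Dlx2 (0.35) were not called. Gsx1, Gsx2 and Nkx2-1 are not analysed here. From the hem and choroid plexus list 6 of 16 genes were analysed: Rspo3 (-0.86) and Wnt7b (-0.82) were called lower, Rspo2 (2.12) and Wnt5a (0.90) higher, where Wnt5a was not called without control 1 (adjusted p 0.101) or without Lhx2 cKO 1 (adjusted p 0.0501). Of 5 antihem genes analysed 1, Nrg3 (0.68), was called. Wnt3a, Wnt8b, Lmx1a, Msx1, Bmp4 and Ttr of the hem and choroid plexus list are not analysed here. Meis2 and Wnt7b, at 310 and 576 CPM in control, also stand in other lists here, so they do not mark ventral or edge cells alone.

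Genes of the signalling pathways that act on these factors were split. The list of 26 holds ligands, receptors, antagonists and transcripts induced by the signals, and 19 were analysed. The ligand genes Fgf8, Fgf15, Wnt3a, Wnt8b, Bmp4, Bmp6 and Shh are not analysed here. Of the 19, 5 were called higher and 3 lower. Their median was 0.19 (0.04 without control 1, 0.43 without control 2, 0.27 without Lhx2 cKO 1 and 0.10 without Lhx2 cKO 2). Etv5 (0.64), Etv4 (0.76) and Spry2 (0.56), known as transcripts induced by FGF signalling, rose, with Spry2 not called without control 2 (adjusted p 0.0518). Of the same families, Spry1 (0.18, adjusted p 0.572), Spry4 (0.19, adjusted p 0.69) and Etv1 (-0.33, adjusted p 0.38) were not called. Wnt7a was at 0.50. The receptor Fgfr3, graded high caudally, fell from 91.2 to 52.2 CPM (-0.80), and Wnt7b was at -0.82. Fgf17, a rostral ligand, was low throughout, with 26 and 33 counts in control against 35 and 34 in Lhx2 cKO (0.33, adjusted p 0.643).

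Genes graded across cortical areas, of which 23 were analysed, had 6 called higher and 5 lower, with a median of 0.16. Besides Fgfr3, the guidance receptors Nrp2 (-0.86) and Epha3 (-0.58) were lower, and the adhesion gene Cdh6 (0.68), the zinc-finger gene Tshz2 (1.08) and the ephrin Efnb3 (0.47) were higher. With 1 library left out, the calls were 6 or 7 higher and 3 or 4 lower. Bulk cortex gives no position, so a change of level and a shift of a gradient cannot be told apart here.

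**Figure D5:**
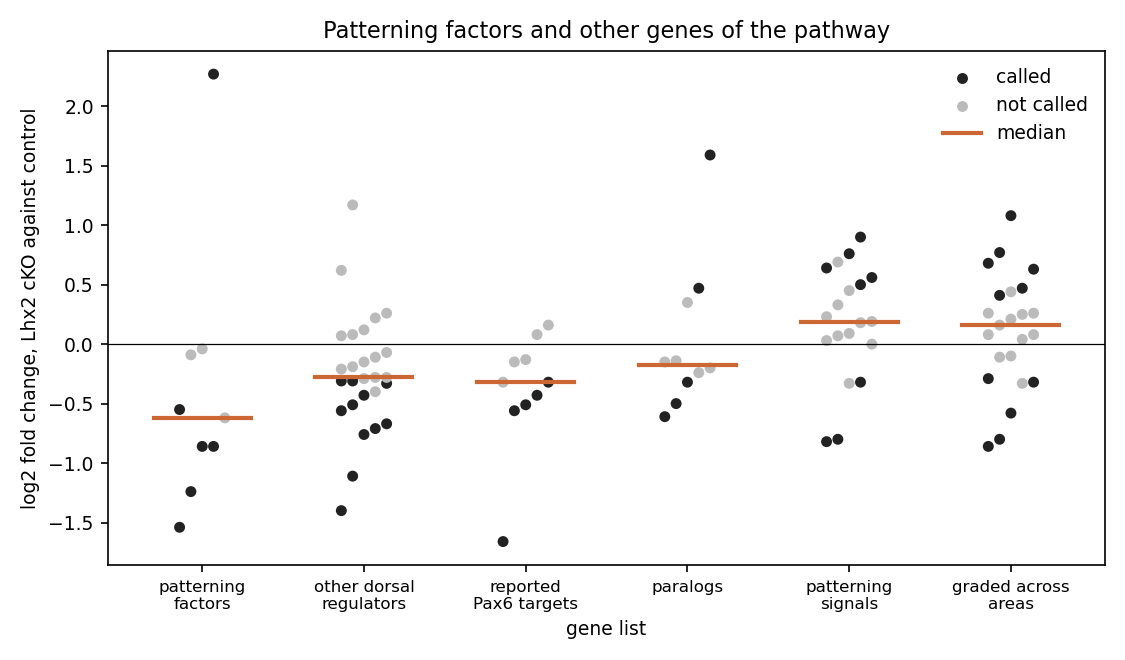
Log2 fold change, Lhx2 cKO over control, for each analysed gene of the patterning factors and of 5 other lists; black points are called, grey are not, and orange lines are list medians. The medians are -0.62 for the patterning factors, -0.28 for other dorsal regulators, -0.32 for reported Pax6 targets, -0.17 for paralogs, 0.19 for patterning signals and 0.16 for genes graded across areas.

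Paralogs of the 9 were mostly scarce in the table, with 10 of 24 analysed and a median of -0.17; 2 were called higher and 3 lower, and without control 1 these counts were 1 and 1. Tfap2d, a relative of Tfap2c, rose from 1.12 to 3.37 CPM (1.59 on the log2 scale, adjusted p 0.00163 in edgeR), opposite to Tfap2c. Sp2 (-0.61), Nr2c2 (-0.50), Sp3 (-0.32) and Nr2c1 (0.47) each lost their call with some library left out, and without control 1 Sp2 was at -0.27 and Nr2c2 at -0.18. Sp3 was at -0.20 without control 2. DESeq2 did not call Sp2, Sp3 or Nr2c1 (adjusted p 0.057, 0.0757 and 0.0628). In other lists DESeq2 also lost the calls of Prom1, Slc1a3, Aurkb, Ccne1, Chrd, Lmo3, Cxcr4, Trp73, Pecam1, Hba-a1 and Hba-a2. The counts of calls in those lists thus depend in part on the tool.

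The nearest protein-coding gene on each side of each of the 9 was taken from RefSeq on GRCm38.p6, and 14 of these 18 neighbours were analysed. Called lower were 3 of them, Rcn1 beside Pax6 (-0.59), Sfxn5 beside Emx1 (-0.66) and Elavl4 beside Dmrta2 (-0.55), and 0 were called higher. That is 21.4%, near the 20.8% called over all genes tested. Elp4, whose RefSeq gene body overlaps the end of Pax6, was at -0.22 (adjusted p 0.429).

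By the root mean square difference of centred log2 CPM over the 4 libraries, the genes most like Emx1 were Foxp4 (0.0549; log2 fold change -1.59) and Sorl1 (0.0767; -1.45). For Pax6 they were Celsr1 (0.0582; -1.22) and Cap2 (0.0603; -1.19), and for Dmrta2 Dlg1 (0.0236; -0.90) and Kat6b (0.0294; -0.84). Tfap2c was closest to Flrt3 (0.0090; -0.83) and Prdm16 (0.018; -0.89). Emx2 was closest to Cul1 (0.00809) and Prkd3 (0.0186), Sp8 to Satb1 (0.0107) and Ppp2r1b (0.0124), Nr2f1 to Arfip2 and Snx6, and Nr2f2 to Banp and Trabd. Dmrt3 had no match as close, with Kcnj2 at 0.123 (2.21) and Fbln2 at 0.164 (2.03). With 4 libraries such likeness mainly restates the size of the difference between the groups.

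The authors' deposited table gives log2 fold changes of -1.54 for Emx1, -1.25 for Pax6, -0.87 for Dmrta2 and Tfap2c and 2.26 for Dmrt3, and those 5 were marked as changed. Emx2, at -0.56 with an adjusted p of 0.000437 in the authors' deposited table, was marked NS there, as were Sp8 (-0.63, adjusted p 0.0927), Nr2f1 (adjusted p 0.579) and Nr2f2 (adjusted p 0.903). The mark is a different criterion from "called" here, since Emx2 and Lhx2 have an authors' adjusted p under 0.05 and are marked NS.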

How the data were processed

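Polyadenylated RNA of E15 mouse cerebral cortex was sequenced in 2 control and 2 Lhx2 cKO libraries, grouped by their titles. The deposited table holds raw counts per gene, which the authors made with tools the submitters' processing notes list as Trim Galore, Subread, featureCounts and edgeR, on build mm39; the annotation, the strand setting and the low-count filter are not given in the sources used here. The lowest row total was 102 counts. The same file holds the authors' log2 fold change and mean log2 CPM, the authors' p-value and adjusted p-value, and the deposited -log10 of the adjusted p-value, per the file headers, plus a gene length in bases.

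From the counts, edgeR 4.0.16 (R 4.3.3) was run over the whole table with TMM factors (0.973 to 1.02), filterByExpr (minimum count 10) and the quasi-likelihood test of Lhx2 cKO against control, without covariates, two-sided, with Benjamini-Hochberg adjustment over 13288 genes. The common biological coefficient of variation was 8.27%. SEs are the size of the log2 fold change over the root of its F statistic, and 95% intervals use the test's total degrees of freedom. CPM are TMM-scaled; log2 levels for reference scales and pattern likeness add 0.5 CPM. Counts of same-group libraries differed by more than sampling noise (chi-square over its degrees of freedom, 13.9 and 14.3), and each library was counted as 1 sample.

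The genes followed, the 19 gene lists (from general knowledge) and the tests were chosen with earlier results of these data known. Named were the 9 genes, Lhx2, up to 6 called genes per pathway list and up to 3 per cell type list by smallest p, and the 2 genes most like each of the 9 (mean of at least 10 CPM); uncalled genes and others given beside them were picked after their values were seen. The cell type lists beyond those in the text gave these calls: intermediate progenitors 6 lower and 1 higher of 12, neurons 3 and 3 of 11, pan and medial interneurons 0 and 5 of 9, Cajal-Retzius cells 0 and 5 of 7, vascular and meningeal cells 2 and 5 of 11, microglia 0 and 9 of 10 (median log2 fold change 1.27), red blood cells 5 and 1 of 7 and oligodendrocyte precursors 0 and 6 of 7 (median 1.22). Without control 1 these became 0 and 3 for Cajal-Retzius cells, 2 and 2 for vascular and meningeal cells, and 1 and 1 for red blood cells. Without Lhx2 cKO 2 they became 0 and 3, 1 and 3, and 3 and 1. Without control 2 vascular cells gave 1 and 5 and red blood cells 5 and 0, the latter also without Lhx2 cKO 1. Alternatives were RLE and upper-quartile factors, library totals, no filter, a minimum mean count of 50, a block for the replicate number, DESeq2 1.42.0, limma-voom (limma 3.58.1), an adjusted p threshold of 0.01, leaving out each library, and levels relative to marker lists.

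Promoter windows come from RefSeq (GRCm38.p6), and 8 of the 9 genes matched by symbol. For 9 of the 12 windows, the last 40 bases were found on the sense strand of a GENCODE M21 transcript of the gene. For the others they were not found, so motif positions rest on RefSeq's annotated start.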

Additional observations from a re-analysis of the deposited data

How the results depend on the processing

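Under 8 alternatives of scaling, filter, replicate block and tool, Emx1, Pax6, Dmrta2, Tfap2c, Emx2 and Dmrt3 stayed called in the same direction, and Nr2f1, Nr2f2 and Sp8 stayed uncalled. Emx2 ranged from -0.56 to -0.55 (adjusted p 0.000599 to 0.00333) and Sp8 from -0.63 to -0.61 (0.102 to 0.183). The labels give no pairing of the replicate numbers, and the correlation of deviations across genes was -0.005. Whether libraries with the same number shared a litter or batch was not tested. The replicate block gave 2874 called genes, against 2758 without it, and no call among the 9 changed. With 1 library left out, that group's lone library is assumed to vary like the others. The 6 called genes then kept their direction, Emx2 ranging from -0.65 to -0.47. Nr2f2 ranged from -0.12 to 0.03 and reversed without control 1 (0.03) and without Lhx2 cKO 2 (0.02). For Emx1, Pax6 and Dmrt3 the edgeR adjusted p was smaller with fewer libraries. These fits therefore bear on the size of the changes and are no check of their p-values. Called genes ranged from 1633 (without Lhx2 cKO 2; 1790 without control 1) to 2396, those higher from 865 to 1395 and those lower from 768 to 1079; a threshold of 0.01 gave 1697, 972 higher and 725 lower, by construction fewer.

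Relative to the summed radial glia list the log2 differences moved to -1.50 for Pax6, -1.79 for Emx1, -0.81 for Emx2, -1.12 for Dmrta2, 2.02 for Dmrt3, -0.35 for Nr2f1, -0.30 for Nr2f2, -0.88 for Sp8 and -1.13 for Tfap2c, that list's sum being higher in Lhx2 cKO. Chosen after seeing the data, the mean log2 level of the same list gave -1.09 for Pax6, -1.38 for Emx1, -0.39 for Emx2, -0.71 for Dmrta2, 0.06 for Nr2f1, 0.11 for Nr2f2, -0.40 for Sp8 and -0.70 for Tfap2c. The mean log2 level of the cell cycle list, also chosen after seeing the data, gave -0.67 for Pax6, -0.96 for Emx1, -0.29 for Dmrta2, 2.62 for Dmrt3, 0.47 for Nr2f1, 0.52 for Nr2f2, 0.01 for Sp8 and -0.28 for Tfap2c, and reversed Emx2 to 0.02. On that cell cycle scale the uncalled Nr2f1 and Nr2f2 also changed sign. The value of 0.01 for Sp8 also reflects the 0.5 CPM added to its low level, so its sign there is not settled. Sp8 had 68 to 117 counts per library and Dmrt3 53 to 257, which limits their precision.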
